A study of Mus musculus with 15 samples.

Results

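Itgb2, Axl, Fcgr1 and Tyrobp are 4 macrophage genes for surface receptors or their signalling partners that were assigned to RevErb binding sites. They were taken as the genes of these names in the authors' table of binding sites shared by RevErbalpha and RevErbbeta. They hold 6 of the 1544 shared sites and 4 of the 1220 gene IDs in that table. Itgb2 and Axl have 2 sites each, and Fcgr1 and Tyrobp have 1 site each.

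RevErbalpha and RevErbbeta are nuclear receptors of the circadian clock that repress transcription. Macrophages engulf antibody-coated particles through Fc receptors, complement-coated ones through integrins, and dying cells through receptors of the TAM family. Itgb2 encodes the beta chain shared by the leukocyte integrins, among them a complement receptor. Axl is a TAM receptor tyrosine kinase that binds Gas6, a protein that bridges it to phosphatidylserine on dying cells. Fcgr1 is the high-affinity receptor for IgG. Tyrobp is a membrane adaptor that carries signals of Trem2 and other receptors to the kinase Syk.

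The study measured binding in RAW cells, a mouse macrophage line, by streptavidin pull-down of biotin-tagged RevErbalpha or RevErbbeta, with cells carrying only BirA, the biotin ligase, as background (the column headed BirA-input is read as this library). Capped nascent RNA was read by 5'GRO-seq in RAW cells with tagged RevErbalpha and in control RAW cells (BTEV-Ctrl). Nascent RNA was read by GRO-seq in bone marrow derived macrophages of mice with RevErbalpha flox/flox and RevErbbeta flox/flox alleles and Tie2-Cre (DKO) and of mice with the same floxed alleles and no Cre (WT). Tie2-Cre is active in blood and endothelial lineages. The labels give a C57Bl6 background and no age or number of animals, and the treatment field names no agent. Bone marrow cells were differentiated in L-cell conditioned medium and then kept in M-CSF, a macrophage growth factor. The file header lists libraries named for KLA and serum shock beside untreated ones, and the columns do not tell which run was treated. Each group is 1 sample, so no comparison between groups has a replicate check or a p-value. The 3 ChIP-seq runs per RevErb and the 2 gene-level GRO-seq runs per genotype are shown one by one as repeat runs of 1 sample.

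Depth was 598490 to 5276592 tags in the ChIP-seq runs and 10548880 in BirA. For 5'GRO-seq it was 7238710 tags with tagged RevErbalpha and 18708148 in control cells, and the gene-level GRO-seq runs had totals of 34852907 to 46649008 tags. The targeted gene Nr1d1 had log2 gene signals of 9.44 and 9.56 in the library labelled DKO and 7.91 and 7.48 in the library labelled WT. The signal was thus higher, not lower, in the library labelled DKO, and why was not tested. Nr1d1 itself holds 3 shared sites, and the other targeted gene, Nr1d2, was not among the gene IDs. Whole-gene signal does not show whether the floxed part was removed, so the labels are unchecked. DKO and WT below name the libraries by their labels only. Of 9 macrophage markers listed, only Csf1r and Fcgr1 were among the gene IDs, and of 5 endothelial markers only Vwf, because the table holds only genes assigned to a site. The markers listed for B, T and NK cells, neutrophils, fibroblasts and dendritic cells were not among them.

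In bone marrow derived macrophages, nascent transcription of none of the 4 genes differed between genotypes by more than the spread of the runs. A gene was called when its mean log2 difference was at least 0.5 with no overlap between DKO and WT runs. By this rule 0 of the 4 genes were called, against 2.70% of all gene IDs (1.97% higher and 0.738% lower in DKO), so that a count of 0 among 4 is close to the background. The runs did not overlap, whatever the size of the difference, for 28.4% of all gene IDs and for 0 of these 4.

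Itgb2 had log2 signals of 11.46 and 11.61 in the library labelled DKO and 11.55 and 11.33 in the library labelled WT. The runs interleaved, and the mean difference was 0.095. Axl had 9.86 and 10.35 in DKO runs and 10.11 and 10.32 in WT runs. Here the DKO runs lay on both sides of the WT runs, and the mean difference was -0.11. Fcgr1 had 10.33 and 10.46 in DKO runs and 10.67 and 10.31 in WT runs, with a mean difference of -0.095. Both DKO runs fell between the WT runs. Tyrobp had 9.81 and 9.89 in DKO runs and 9.87 and 9.42 in WT runs, with a mean difference of 0.205. The lower WT run set this difference, which was -0.02 without it. For each of the 4 genes the sign of the difference changed when 1 run was left out, within -0.015 to 0.205 for Itgb2, -0.355 to 0.135 for Axl, -0.275 to 0.085 for Fcgr1 and -0.02 to 0.43 for Tyrobp. The typical SD between runs of 1 genotype over all gene IDs was 0.218 for DKO and 0.239 for WT, and the median difference of all gene IDs was 0.035. The values are not known to be per length, so no order of level among the genes is drawn. In bulk samples fewer cells of a type and less RNA per cell cannot be told apart.

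**Figure D1:**
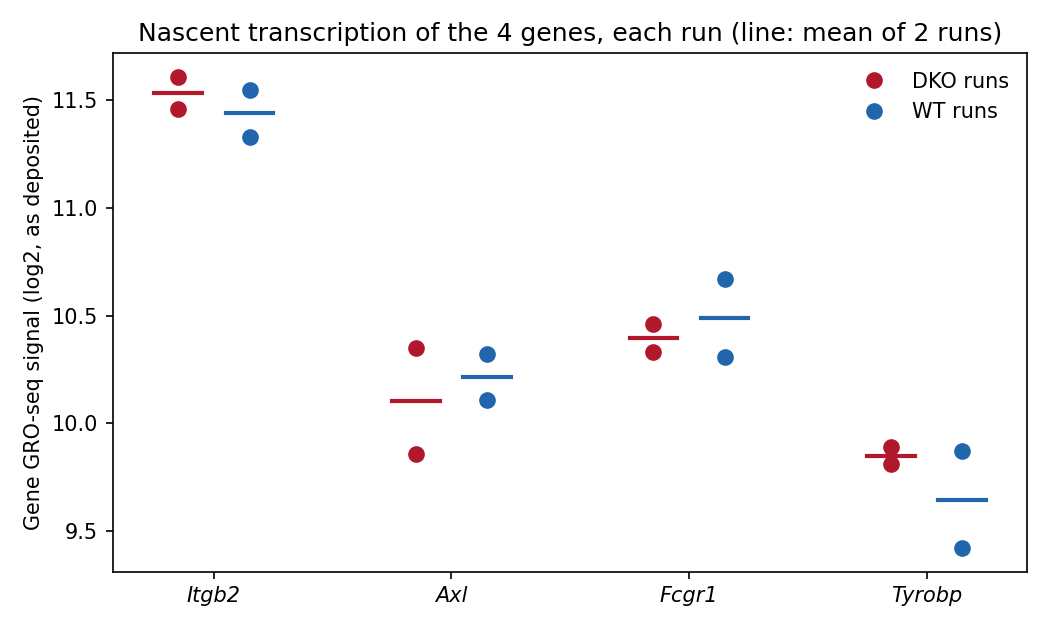
Gene-level GRO-seq signal (log2, as deposited) of Itgb2, Axl, Fcgr1 and Tyrobp in the 2 DKO runs (left of each pair) and the 2 WT runs (right), with a line at the mean of each pair of runs. The runs of the genotypes overlap for every one of the 4 genes, and the mean differences lie between -0.11 and 0.205.

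The sites differ in kind and in place between the genes. Positions are on mouse build mm9, and every site is 157 bp long. Itgb2 (NM_008404) has a site 14 bp upstream of its start (chr10:76993001-76993157) and another 1579 bp downstream of the start (chr10:76994594-76994750), 1593 bp apart. Both are in the authors' class with H3K4me3 above H3K4me1, the pattern of promoters. Axl (NM_009465) has a site 11591 bp downstream of its start (chr7:26561891-26562047) and another 35731 bp upstream (chr7:26609213-26609369), 47322 bp apart. Fcgr1 (NM_010186) has its site 6921 bp upstream (chr3:96104735-96104891), and Tyrobp (NM_011662) has its site 19214 bp upstream (chr7:31179515-31179671). The Axl, Fcgr1 and Tyrobp sites carry high H3K4me1 and low H3K4me3, the marks of enhancers, and only the Fcgr1 site is in the authors' intergenic list. The downstream sites of Itgb2 and Axl lie nearer to the start than the RefSeq lengths of these genes, 35380 and 32425 bp in GRCm38.p6. GRO-seq signal there can include reads of the gene itself, and whether strand was used in counting is not given in the sources used here. The distal sites were given to these genes as the nearest expressed ones, and the nearest other shared site to that of Tyrobp is 608290 bp away.

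Binding at the 6 sites was a little below that of shared sites, with medians of 5.24 against 5.45 for RevErbalpha and 5.285 against 5.68 for RevErbbeta. Values are log2 tags per 10000000 in 157 bp, and the sites were called for enrichment, so their excess over BirA is no finding. At the Itgb2 start, RevErbalpha runs had 5.37, 4.19 and 6.56, RevErbbeta runs 5.75, 6.34 and 5.51, and BirA 1.48. The downstream Itgb2 site had 4.67, 6.32 and 4.59 for RevErbalpha, 5.36, 7.50 and 6.48 for RevErbbeta and 1.70 for BirA. The mean of RevErbbeta there, 6.45, was at the 75.9th percentile of shared sites, the highest rank of either protein at the 6 sites, and it was 5.92 without run 2, which held about 88 tags. The runs of the proteins overlapped at both Itgb2 sites.

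At the downstream Axl site the RevErbalpha runs had 6.02, 5.28 and 6.33, the RevErbbeta runs 5.31, 6.0 and 5.50, and BirA 1.32. RevErbalpha averaged 5.88 ± 0.54 (SD of 3 runs), at the 68.5th percentile. The upstream Axl site had 4.35, 5.49 and 6.0 for RevErbalpha, 4.18, 5.94 and 4.0 for RevErbbeta and 1.26 for BirA. It was the weaker Axl site in every run but RevErbalpha run 2. The Fcgr1 site had 4.02, 3.98 and 5.26 for RevErbalpha, 4.88, 4.83 and 5.19 for RevErbbeta and 1.44 for BirA. Its means of 4.42 ± 0.73 and 4.97 ± 0.20 (SD of 3 runs) were at the 9.07th and 19.7th percentiles.

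The Tyrobp site had 4.46, 5.39 and 5.60 for RevErbalpha, 5.14, 5.54 and 1.05 for RevErbbeta and 0.46 for BirA. RevErbbeta run 3 held no whole tag there, in a library of 780281 tags in which 1 tag reads as 3.79. With that run the RevErbbeta mean was 3.91, at the 1.55th percentile, and without it 5.34, at the 21.6th percentile of the same mean over shared sites. Shallow runs weigh on the other sites as well, since RevErbalpha runs 2 and 3 and RevErbbeta run 3 held at most 6 tags at any of the 6 sites. In RevErbalpha run 1 alone the downstream Axl site was at the 85.4th percentile and the Itgb2 start at the 64.8th, while the Fcgr1 site stayed low at the 9.39th percentile.

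**Figure D2:**
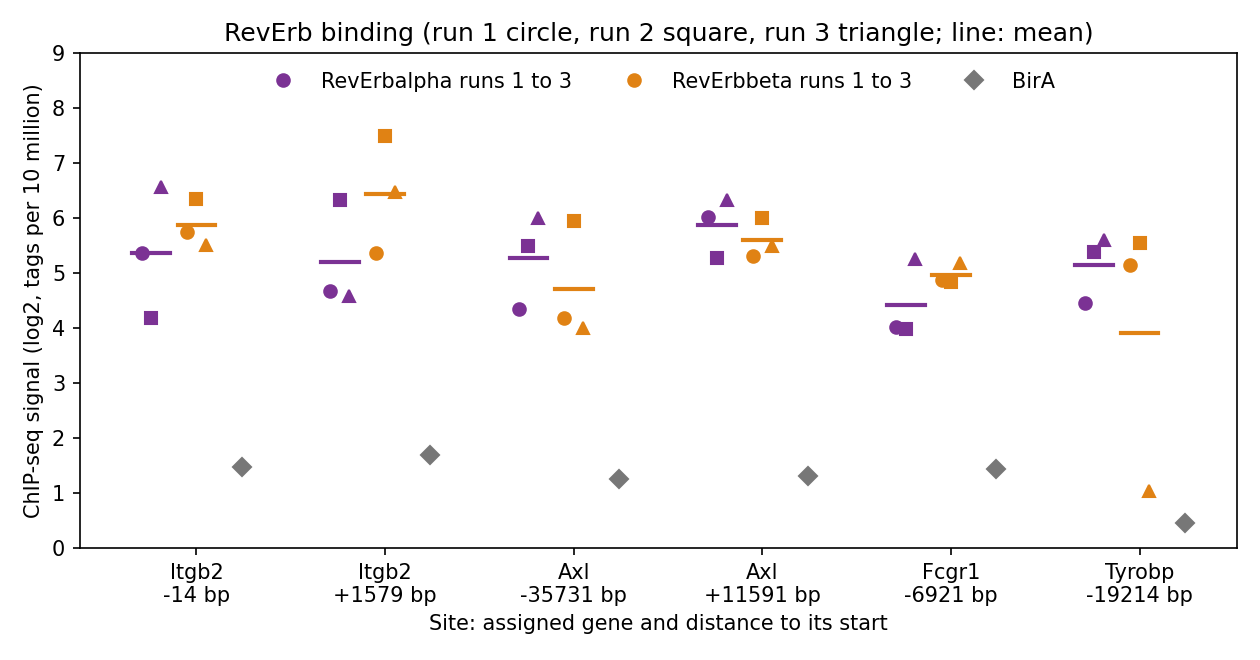
ChIP-seq signal (log2 tags per 10000000) at the 6 sites for the 3 RevErbalpha runs, the 3 RevErbbeta runs and the BirA library, with a line at the mean of 3 runs. The runs of the proteins lie together well above BirA except RevErbbeta run 3 at the Tyrobp site, which reads 1.05.

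Tagged RevErbalpha in RAW cells went with more capped nascent RNA at the downstream Axl site and, by less, at the Fcgr1 site. Values at the other 4 of the 6 sites were below control, at the Itgb2 start within counting error. Of all 1544 shared sites 966 were below control, so this direction does not set the 4 apart. A site counted as higher or lower when its 5'GRO-seq difference was 1 or more on the log2 scale. Of the 6 sites 1 was higher by this rule, against 4.92% of all shared sites, and 0 were lower, against 20.0%. The higher one, the downstream Axl site, fell just under this size, to 0.96, when 10 was added before the logarithm. Values are log2 tags per 10000000 in 500 bp. Tag numbers are approximate, since the deposited values are not on steps of whole tags, and the intervals below cover counting error between 1 library of each kind, not the conditions.

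At the downstream Axl site the value was 6.57 with tagged RevErbalpha and 5.47 in control cells, about 68 and 81 tags. The difference was 1.10, with an exact binomial 95% interval of 0.63 to 1.60 for counting error, or 2.14-fold on the scale of tags plus 1. It stood at the 96.0th percentile of shared sites. The upstream Axl site went the other way, with 6.69 with tagged RevErbalpha and 7.13 in control cells and a difference of -0.44 (interval -0.84 to -0.07). The Fcgr1 site read 7.96 with tagged RevErbalpha and 7.29 in control cells, a difference of 0.67 (interval 0.40 to 0.95) at the 89.6th percentile.

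The Itgb2 start, among the more strongly transcribed sites, had 8.39 with tagged RevErbalpha and 8.44 in control cells, about 242 and 647 tags. Its difference of -0.05 (interval -0.27 to 0.17) was not detectable at this depth. The downstream Itgb2 site had 5.47 with tagged RevErbalpha and 6.07 in control cells, with a difference of -0.60 and a wide interval of -1.24 to -0.04 from about 31 tags in the tagged library. The Tyrobp site had 8.50 with tagged RevErbalpha and 8.76 in control cells, a difference of -0.26 (interval -0.47 to -0.06). This was close to the median difference of all shared sites, -0.23.

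The medians of the 2 libraries over shared sites differ by -0.295. Relative to this shift the differences were 1.395 and -0.145 at the downstream and upstream Axl sites, 0.965 at Fcgr1, 0.245 and -0.305 at the start and the downstream site of Itgb2, and 0.035 at Tyrobp. Centring on the medians, the 1 other scaling tried, turned the direction at the Itgb2 start and at Tyrobp and kept it at the other 4 sites. The centred differences at the upstream Axl, downstream Itgb2 and Tyrobp sites were within counting error.

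**Figure D3:**
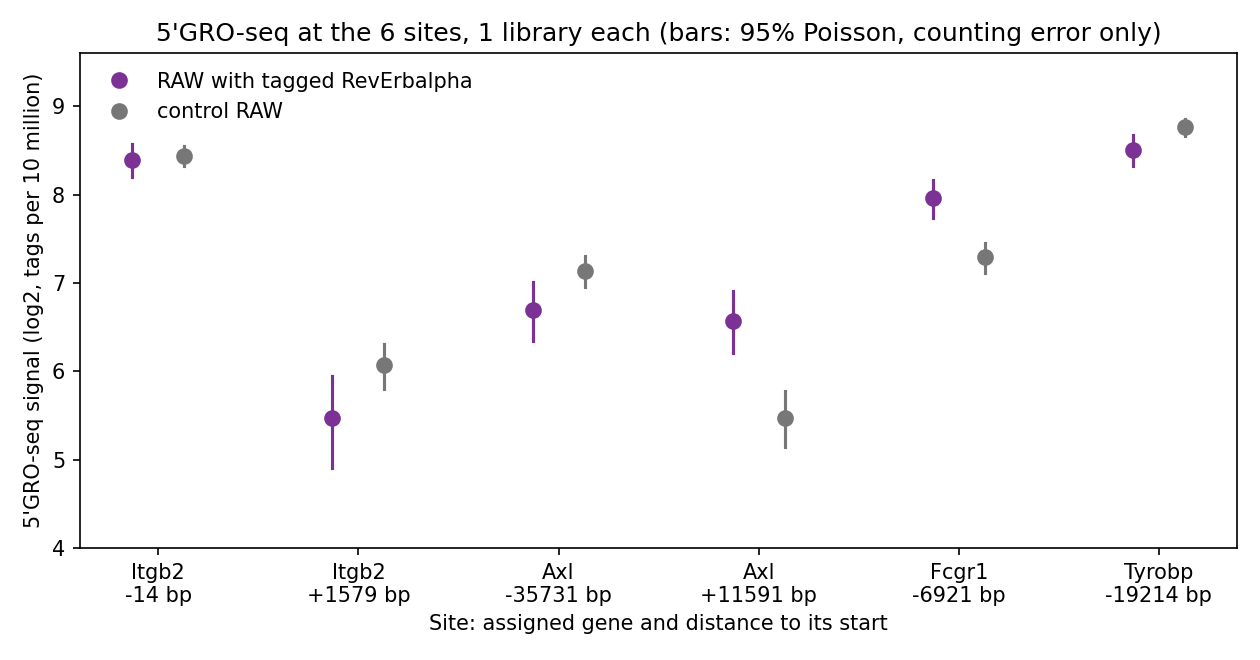
5'GRO-seq signal (log2 tags per 10000000 in 500 bp) at the 6 sites in RAW cells with tagged RevErbalpha (left of each pair) and control RAW cells (right), 1 library each, with 95% Poisson bars for counting error. The bars do not overlap at the downstream Axl site, 6.57 against 5.47, and at the Fcgr1 site, 7.96 against 7.29.

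GRO-seq at the same sites in bone marrow derived macrophages differed by less than 1 between genotypes at all 6. Of all shared sites, 5.57% passed this size, with 3.37% higher and 2.20% lower in the library labelled DKO. These columns give 1 value per genotype and no tag total, so their counting error is unknown. The downstream Axl site had 4.055 in the library labelled DKO and 3.31 in the library labelled WT, a difference of 0.745 at the 93.5th percentile. It shrank to 0.44 when 10 was added to the linear values. Signal of the Axl gene, by contrast, had a mean difference of -0.11 with overlapping runs. The same site read higher with tagged RevErbalpha in RAW cells and in the library labelled DKO. Of the 76 shared sites higher by 1 or more in 5'GRO-seq, 38 also read higher in DKO, so this is common among such sites. The 2 readings come from different cells, assays and windows, each with 1 library or value per condition.

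The upstream Axl site was nearly silent by GRO-seq, with 0.185 in DKO and 0.74 in WT, at the 3.17th and 10.5th percentiles, and its difference of -0.555 was -0.074 with 10 added. By 5'GRO-seq in RAW cells the same site was at the 65.0th percentile with tagged RevErbalpha and the 68.0th in control cells. The downstream Itgb2 site had 6.295 in DKO and 5.88 in WT, a difference of 0.415, and was at the 95.6th and 91.6th percentiles of level. At the Itgb2 start the values were 5.51 in DKO and 5.50 in WT. The Fcgr1 site had 5.33 in DKO and 5.40 in WT, and the Tyrobp site 5.75 in DKO and 5.955 in WT, differences of -0.07 and -0.205. The 4 sites of Itgb2, Fcgr1 and Tyrobp were thus all well above the median level of shared sites, 3.765 in DKO and 3.68 in WT. Reads of a gene can be part of these levels. The Itgb2 sites are at or in that gene, and the Tyrobp site is not in the authors' intergenic list.

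**Figure D4:**
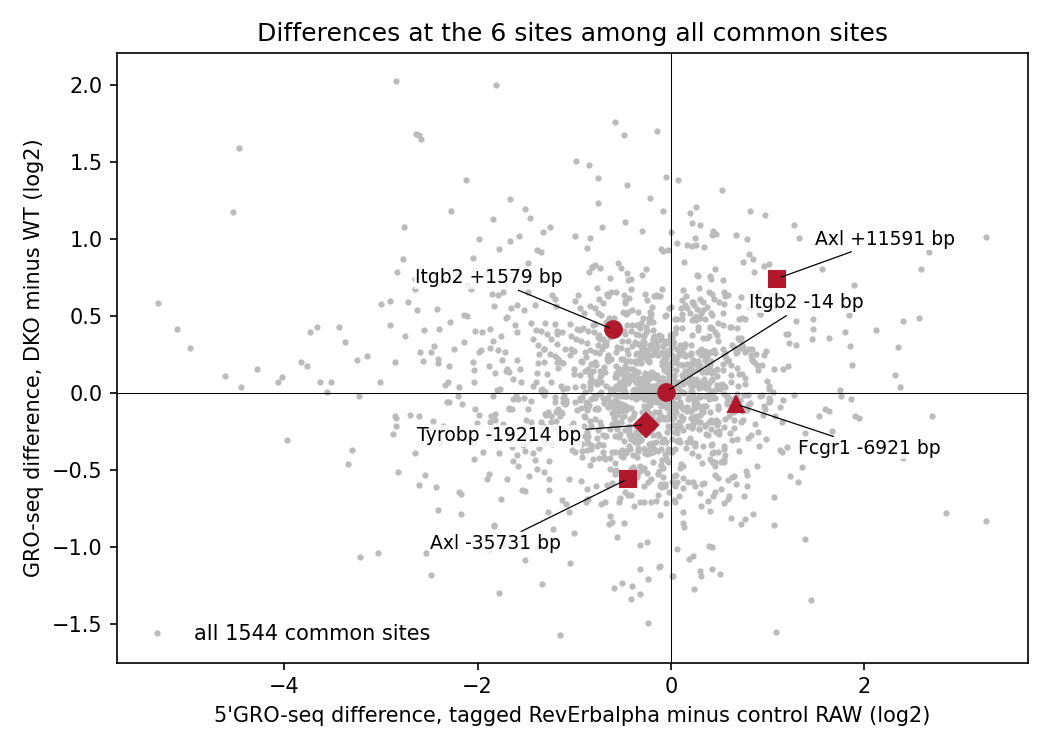
Each of the 1544 shared sites by its 5'GRO-seq difference in RAW cells (tagged RevErbalpha minus control, log2, horizontal) and its GRO-seq difference in bone marrow derived macrophages (DKO minus WT, log2, vertical), with the 6 sites in red. The downstream Axl site lies at 1.10 and 0.745, apart from the other 5 sites, whose differences lie between -0.60 and 0.67 horizontally and between -0.555 and 0.415 vertically.

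Other genes of the same pathways also differed little between genotypes, as did most gene IDs. Of all gene IDs, 96.8% had a difference under the size set for calling a gene. Of 83 listed genes, 21 were in the table, as 23 gene IDs with 35 sites, and 0 of these IDs were called, against 2.70% of all. A count of 0 among 23 is close to this background and does not set the listed genes apart. Their differences ranged from -0.15 to 0.16 with a median of 0.00, against 0.035 for all gene IDs. The runs did not overlap for 5 of the 23, with DKO above WT for 3 and below for 2, against 18.4% and 10.0% of all gene IDs. These are runs as deposited, not centred. DKO run 2 had a median of 9.95 over all gene IDs, against 9.845 to 9.86 in the other runs. Whether the small gaps of these 5 remain after centring was not tested.

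None of the other TAM receptors and TAM ligands listed (Mertk, Tyro3, Gas6 and Pros1) was among the gene IDs. Nor was any of the 4 genes listed beside Fcgr1 for Fc receptors and their chain. Values in parentheses below are gene-level log2 differences, DKO minus WT. Among 14 integrins and complement receptors there were 3, namely Itgav (-0.15) and Itgb5 (0.035), integrin chains, and C3ar1 (-0.03), a receptor for a complement fragment. Of the 35 sites of the listed genes, 2 passed a GRO-seq difference of 1, both lower in DKO. Of all shared sites 5.57% passed it in either direction, a share close to this count, and 2.20% were lower. With 10 added before the logarithm, 0 of all shared sites were lower by 1 or more, so neither of the 2 kept this size. They were the sites of Itgav and of Rap1a, a small GTPase of integrin activation. The Rap1a site had GRO-seq values of 1.21 in DKO and 2.365 in WT, and its 5'GRO-seq value was 7.40 with tagged RevErbalpha and 7.10 in control cells. The Itgav site, with little signal, was lower in both assays, with 5'GRO-seq values of 3.29 with tagged RevErbalpha and 4.44 in control cells and GRO-seq values of 0.13 in DKO and 1.70 in WT. Of 14 genes listed for Tyrobp-linked and inhibitory receptors, only Cd300a (0.14), an inhibitory receptor, was present. Of 14 genes listed as other engulfment receptors and bridging proteins, 4 were present. They were Cd14 (0.15), a receptor for lipopolysaccharide, Lrp1 (0.125), which takes up lipoproteins and dying cells, and the scavenger receptors Stab1 (0.12) and Cd36 (-0.12). Cd14 had 9.27 and 9.25 in DKO runs and 9.17 and 9.05 in WT runs. Lrp1 had 13.68 and 13.86 in DKO runs and 13.63 and 13.66 in WT runs. As deposited, these were the engulfment receptors whose runs did not overlap, by narrow gaps.

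Syk, the kinase to which Tyrobp signals, had 11.85 and 11.95 in DKO runs and 11.88 and 11.64 in WT runs, a difference of 0.14 with overlapping runs. Among the kinases and adaptors, the DKO runs as deposited lay above the WT runs for the adaptor Lcp2 (0.075). They lay below for Pik3cg (-0.105), a lipid kinase, and Vav3 (-0.085). Lyn (0.00), Inpp5d (0.005), Plcg2 (-0.045), Blnk (0.05) and Pik3r1 (-0.10) had overlapping runs. So had the genes of actin and integrin activation, Cyth4 (0.16), Pxn (0.11), Rap1a (-0.07) and the 2 IDs of Elmo1 (-0.05 and -0.06). At the 35 sites of the listed genes, 5'GRO-seq was lower by 1 or more with tagged RevErbalpha at 5 sites (14.3%) and higher at 1 (2.86%), against 20.0% and 4.92% of all shared sites. The lower ones were sites of Itgav, Inpp5d, Pik3r1, Lcp2 and Elmo1. The higher one was another site of Elmo1, which had 3.84 with tagged RevErbalpha and 2.20 in control cells. Several of these rest on few tags, since 1 tag reads as 1.25 in the tagged library and 0.62 in the control library. With tagged RevErbalpha the Pik3r1 site had 0.09 and the lower Elmo1 site 0.75, each below 1 tag, against 1.36 and 2.57 in control cells. Counting error was not computed for the sites of listed genes.

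**Figure D5:**
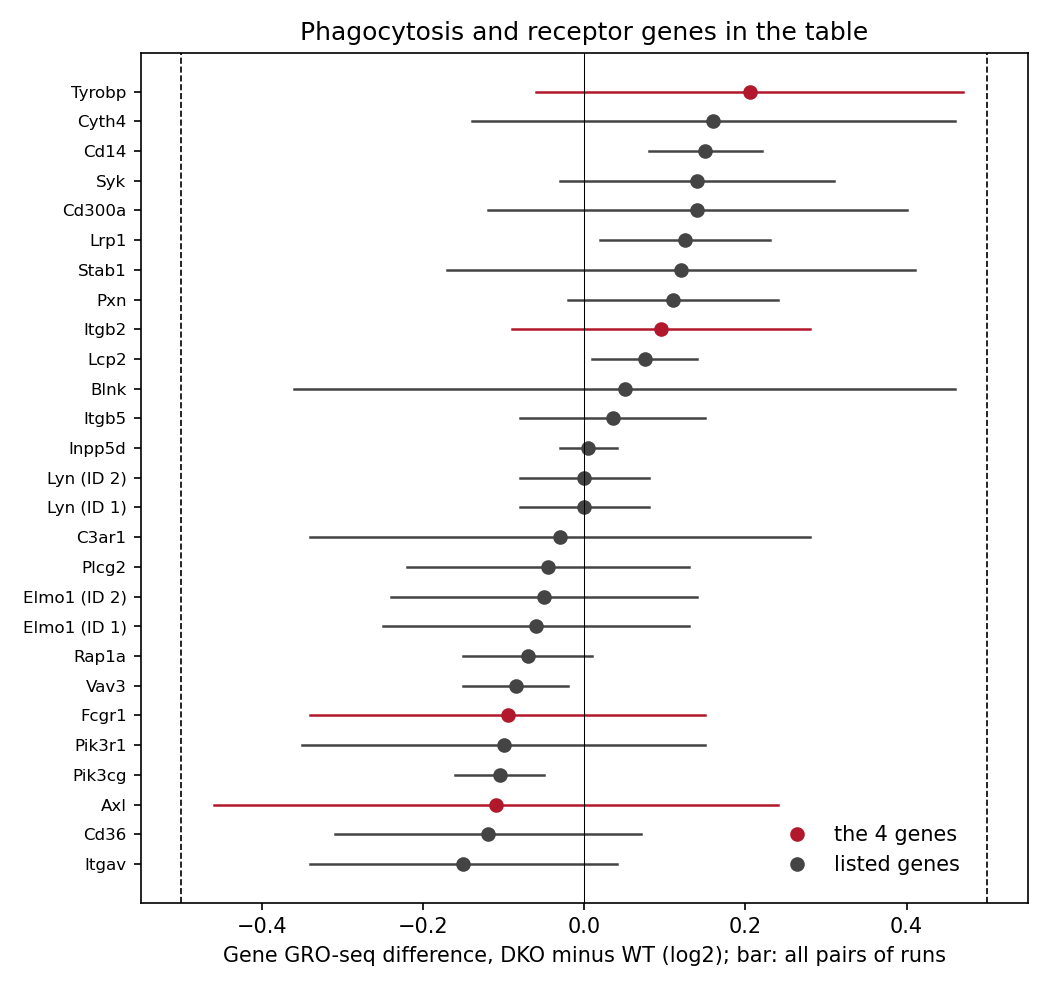
Gene-level GRO-seq difference (log2, DKO minus WT) of the 4 genes (red) and the 23 listed gene IDs (dark), with bars over all pairs of 1 DKO and 1 WT run and dashed lines at a difference of 0.5 in each direction. No gene reaches 0.5, and the values lie between -0.15 for Itgav and 0.205 for Tyrobp.

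The genes whose 4 gene-level GRO-seq runs were most like those of each receptor gene were found by the Euclidean distance of their log2 values over these 4 runs. The values were not centred by gene, so the distance includes the level of signal, and near genes need not share a difference between genotypes. That difference was -0.095 for Fcgr1, and 0.07, 0.055 and -0.06 for its neighbours Dusp6, Svep1 and Usp12. For Itgb2 they were Ptpn1 (distance 0.026), Gse1 (0.055) and Oga (0.10, named Mgea5 in the table), and for Tyrobp they were Clmp (0.11), Rhob (0.11) and Vasp (0.22). For Fcgr1 they were Dusp6 (0.20), Svep1 (0.20) and Usp12 (0.21), and for Axl they were Fxyd5 (0.24), Aebp2 (0.31) and Clspn (0.34). Axl thus had the least close neighbours of the 4, and its DKO runs were the farthest apart, by 0.49.

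Sequences of the 6 sites were not used here. RefSeq promoters of build GRCm38.p6, windows around the gene start, were read for Axl and Fcgr1, which matched the table, and no RevErb site lies in them. None of 6 motifs was found there on either strand. The nuclear receptor element AGGTCA is in 16.3% of all 32851 promoters. The longer TAGGTCA, which contains it, is in 2.61%, and the direct repeat of the element spaced by 2 bases in 0.00913%. The PU.1 motif GAGGAAGT is in 3.20%, the AP-1 motif TGANTCA in 7.81% and the C/EBP motif TTNCNNAA in 40.7%. Such a match or its lack describes these letters in these windows only.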

How the data were processed

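ChIP-seq, 5'GRO-seq and GRO-seq values of 7 of the 15 labelled samples were used, with 1 sample per group; the H3K9ac, H3K4me1 and PU.1 libraries were not analysed here. The deposited values are log2 signals. Per the file headers the authors made the ChIP-seq columns with HOMER as log2 of tags in 157 bp and the 5'GRO-seq columns as log2 of tags in 500 bp, scaled to 10000000 tags, after adding 1. Window and scaling of GRO-seq at sites are not given in the sources used here. Reads were mapped to mm9, and the submitters' processing notes name Bowtie 0.12.7 and HOMER. How peaks were called and histone classes set is not given in the sources used here.

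Differences, percentiles and counts over all 1544 sites and 1220 gene IDs were computed with Python 3.11.15, numpy 2.4.6, pandas 2.3.3 and scipy 1.17.1, and figures with matplotlib 3.10.9. Runs were averaged on the log2 scale as repeat runs of 1 sample. No test between groups was made. Tag numbers were recovered from the log2 values and are whole only approximately; Poisson and exact binomial 95% intervals cover counting error only. Recomputed means differed from the authors' columns by at most 0.01. Of the gene IDs, 1208 matched RefSeq symbols. The authors gave each site to the nearest expressed protein-coding gene. Named genes are the 4 members, the 3 nearest IDs to each by distance over 4 runs, the pathway list and Nr1d1. The members, lists and rules were chosen with earlier results of these data known. Only the rule for calling genes was tried on simulated runs, with changes of 1 on the log2 scale. That trial covers neither the site counts nor differences as small as those of the 4 genes. Alternatives were leaving out each run, centring, adding 10 before the logarithm, a difference of 1 and leaving out the lowest quartile.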

Additional observations from a re-analysis of the deposited data

How the results depend on the processing

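No paired analysis was possible because each group is 1 sample and no test was made. Leaving out each run moved the Axl gene difference between -0.355 and 0.135. With a difference of 1, 7 gene IDs were higher and 2 lower in the library labelled DKO, in place of 24 and 9, and above the lower quartile of level 7 were higher and 1 lower. Centring the columns gave 5'GRO-seq differences of 0.245 at the Itgb2 start, 0.965 at Fcgr1 and 0.035 at Tyrobp. Adding 10 before the logarithm left 34 sites higher and 181 lower by 5'GRO-seq, in place of 76 and 309, and 3 higher and 0 lower by GRO-seq, in place of 52 and 34. Above the lower quartile of signal there were 41 higher and 176 lower by 5'GRO-seq and 29 higher and 13 lower by GRO-seq. Adding 10 also gave GRO-seq differences of -0.074 at the upstream and 0.44 at the downstream Axl site. In the deepest RevErbalpha run alone, binding was 4.35 at the upstream Axl site and 4.46 at Tyrobp, in place of 5.28 and 5.15. The causes were not tested. One library per condition, shallow ChIP-seq runs and unknown treatment of the runs limit every comparison.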
